A study of Mus musculus with 6 samples.

Results

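Scavenger receptors and mannose-type C-type lectin receptors are the surface proteins with which macrophages take up modified lipoproteins, glycoproteins and microbes. Their mRNAs were examined here in RAW264.7 cells, a macrophage-like line from a mouse tumour induced by Abelson leukaemia virus, after treatment with SKI-II, a compound sold as an inhibitor of the sphingosine kinases. The set was given by name and holds 10 genes, Msr1, Cd36, Marco, Mrc1, Clec10a, Stab1, Olr1, Clec7a, Clec4d and Clec4e, and each symbol matched a single row among the 49315 genes of the count table. Cells labelled wild type received 4 μg/mL SKI-II for 24 h, or as much of the vehicle DMSO, with 3 libraries per group, so that the groups shared the line and the vehicle and differed in SKI-II. All libraries came from a single established line, and the methods name biological replicates for the qPCR assay, whose treatment the sequencing followed, without tying each library to a separate culture. The p-values measure the spread between these libraries, part of which may be technical.

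Scavenger receptors were first defined by their uptake of oxidized or acetylated low-density lipoprotein, and several of them also bind bacterial surface components. Class A members such as MSR1 and MARCO carry collagen-like stalks, CD36 of class B also takes up long-chain fatty acids, and stabilin-1 clears extracellular matrix proteins. The C-type lectin receptors bind sugars or glycolipids, with the mannose receptor MRC1 and the galactose-type lectin CLEC10A serving mainly in endocytosis. Dectin-1 (Clec7a) and Mincle (Clec4e) instead signal through the kinase Syk and the adaptor CARD9. Mrc1 and Clec10a are widely used as markers of alternatively activated macrophages.

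The libraries held between 12495957 and 20050677 counts, and 12274 genes had enough reads for edgeR's quasi-likelihood test, with 99.9% of the counts of each library. Normalized counts are counts scaled to the mean TMM-adjusted library, and every adjusted p is from this test with Benjamini-Hochberg adjustment over the 12274 genes. A gene is called higher or lower at an adjusted p below 0.05. Of 15 macrophage identity genes 13 had enough reads for the test, and C1qa and C1qb, which encode complement subunits, had at most 2 counts per library. Csf1r, the receptor for the growth factor CSF1, had between 12858 and 18774 counts per library, and Cd68 had between 12485 and 18549, and neither was called. Other identity genes changed and are given with the last lists. B and T cell markers were scarce, with at most 6 counts per library for any of 10 genes. So were endothelial and fibroblast markers, with at most 18 for any of 8 genes. The highest count in a library was 117 among neutrophil genes and 76 among dendritic cell genes. Of 7 neutrophil genes, Ly6g and Ngp had no counts, and S100a8 was the single member with enough reads for the test. Of 8 dendritic cell genes, Flt3 and Cd209a had no counts. Of these 8, Zbtb46 alone was tested, and it was lower (log2 fold change -0.84, edgeR adjusted p = 0.0451), a call that was lost in 5 of the 6 fits with a library left out, where the adjusted p reached 0.151.

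Of the 10 receptor genes, 9 had enough reads for the test. Clec10a, Clec4d and Cd36 were higher with SKI-II, and Olr1, Msr1 and Mrc1 were lower. Stab1, Clec7a and Clec4e were not called, and Marco had no counts in any library. The called share was thus 6 of 9, while 38.0% of all tested genes were called, 18.4% as higher and 19.7% as lower. With the further condition of an absolute log2 fold change above 1, Clec10a remained as higher and Olr1, Msr1 and Mrc1 as lower, whereas 8.28% and 7.44% of all tested genes met that rule in the respective directions. The groups did not overlap in 6 of the 9 genes, which were the called ones, and in 50.3% of all tested genes. The 9 genes are few, and no test of the set as a whole was made.

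**Figure D1:**
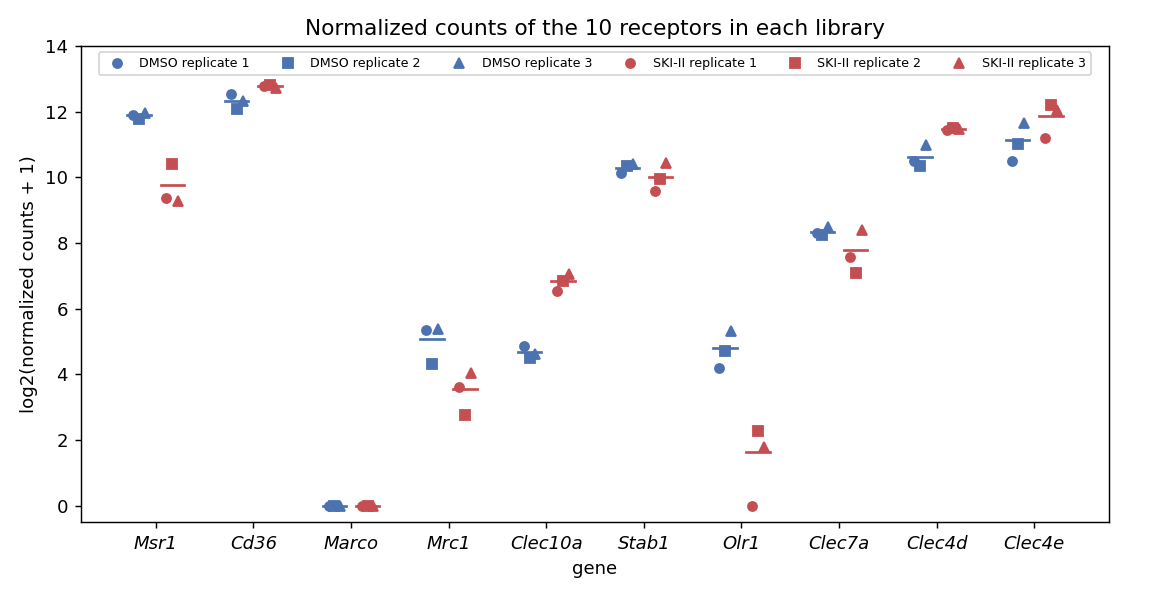
Normalized counts of the 10 receptor genes, on a log2 scale after adding 1, with DMSO libraries in blue, SKI-II libraries in red, a marker shape per replicate number and a line at each group's mean. Msr1, Mrc1 and Olr1 lie lower in all 3 SKI-II libraries, Clec10a, Clec4d and Cd36 lie higher, the groups overlap for Stab1, Clec7a and Clec4e, and Marco lies at 0.

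Promoter windows are shown for 3 called genes whose window held a motif that was searched for. The window of Cd36, a further called gene with a match, is not shown. RefSeq promoter sequences of GRCm38.p6 matched 8 of the 10 genes, with 9 windows, and were searched over the 250 bases before the annotated start. The motifs, on both strands, were TGACTCA for AP-1, TGACNNNGC for the core of the antioxidant response element, GGAAGT for the core bound by ETS factors such as PU.1, the direct repeat known as the PPAR response element and CACGTG for the E-box. Capitals mark the match, which on the opposite strand reads as its reverse complement.
Olr1 (chr6:129507166-129507415, minus strand): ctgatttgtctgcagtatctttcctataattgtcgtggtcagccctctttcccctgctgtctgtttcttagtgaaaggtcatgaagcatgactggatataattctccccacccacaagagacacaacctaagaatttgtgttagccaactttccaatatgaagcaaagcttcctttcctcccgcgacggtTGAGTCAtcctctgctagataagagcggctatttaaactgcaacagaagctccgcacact
Clec4d (chr6:123261857-123262106, plus strand): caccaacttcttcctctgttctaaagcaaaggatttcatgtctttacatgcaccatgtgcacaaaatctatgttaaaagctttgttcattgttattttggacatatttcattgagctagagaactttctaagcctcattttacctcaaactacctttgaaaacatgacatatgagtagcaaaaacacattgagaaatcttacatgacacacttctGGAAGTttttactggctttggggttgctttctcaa
Mrc1 (chr2:14229164-14229413, plus strand): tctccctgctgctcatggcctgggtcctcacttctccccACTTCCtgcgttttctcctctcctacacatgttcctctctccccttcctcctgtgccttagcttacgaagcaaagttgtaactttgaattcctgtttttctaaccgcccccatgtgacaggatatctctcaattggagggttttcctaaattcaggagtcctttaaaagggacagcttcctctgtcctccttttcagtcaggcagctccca

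The AP-1 heptamer of Olr1 begins 60 bases before the start, and it was found in 1 of the 9 windows and in 4.46% of all 32851 promoters of the table. The ETS core was in 3 of the 9 windows, those of Clec4d, Mrc1 and Cd36, and in 19.7% of all promoters. It begins 35 bases before the start of Clec4d and 176 bases before that of Cd36, which were both higher with SKI-II. In Mrc1, which was lower, it begins 211 bases before the start. The antioxidant response element core, the PPAR element and the E-box were in none of the 9 windows and in 10.2%, 0.0335% and 6.02% of all promoters. These matches describe the letters of the windows and were not related to the expression values by any test.

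Among the 5 scavenger receptors of the set, Msr1 and Olr1 fell, Cd36 rose, and Stab1 and Marco gave no call. Msr1 (chromosome 8, 39581685 to 39642673 in GRCm38) encodes the class A receptor SR-A1, which takes up acetylated lipoprotein and bacterial lipids. It had 3847, 3520.2 and 3961 normalized counts under DMSO against 662, 1346 and 619 under SKI-II, in replicates 1, 2 and 3. Each SKI-II library lay far below the lowest DMSO library, and replicate 2 was the highest of the treated ones. The mean fell from 3776 ± 229 (SD, n = 3) to 876 ± 408 (SD, n = 3), 4.31-fold lower, or -2.11 ± 0.26 on the log2 scale (SE, edgeR adjusted p = 0.000277). With each library left out in turn the log2 fold change lay between -2.56 and -1.91, and the call held.

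Marco (chromosome 1, 120474538 to 120505024), the other class A receptor of the set, had no counts in any of the 6 libraries. A count of 0 allows up to 3 counts over the 3 libraries of a group, which corresponds to at most 0.0343 RPKM (counts per exon length and library size) in DMSO and 0.0307 RPKM in SKI-II, counting error only. A change of Marco was therefore not detectable at this depth.

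Cd36 (chromosome 5, 17781690 to 17888801), the class B receptor for oxidized lipoprotein and long-chain fatty acids, moved the other way and by little. Its normalized counts were 5936, 4287 and 5139 under DMSO against 7076, 7209 and 6757 under SKI-II. The treated libraries lay close together and above all 3 controls. The mean rose from 5121 ± 824 (SD, n = 3) to 7014 ± 232 (SD, n = 3), or 0.45 ± 0.14 as log2 fold change (SE, edgeR adjusted p = 0.0299). The call depended on single libraries. It was lost without DMSO replicate 2 (log2 fold change 0.33, adjusted p = 0.168), DMSO replicate 3 (adjusted p = 0.0563), SKI-II replicate 1 (adjusted p = 0.0643) or SKI-II replicate 2 (adjusted p = 0.0928), all from edgeR.

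Olr1 (chromosome 6, 129485244 to 129507165) encodes LOX-1, a lectin-like receptor for oxidized lipoprotein of class E. It had raw counts of 18, 20 and 39 under DMSO against 0, 4 and 3 under SKI-II. The gene was thus low in the controls and near 0 after treatment. In normalized counts the mean was 27.1 ± 10.7 (SD, n = 3) in DMSO and 2.09 ± 1.93 (SD, n = 3) in SKI-II, a ratio of 0.0769. The fitted log2 fold change was -3.56 (SE 0.76, edgeR adjusted p = 0.00222), and it lay between -4.17 and -3.09 with each library left out, always called. With a prior count of 2 in the fit, which draws ratios of low counts towards 0, it was -2.80. So few counts leave the size of the decrease imprecise, with a 95% interval of -5.25 to -1.87 on the log2 scale.

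Stab1 (chromosome 14, 31139013 to 31168641), which encodes the class H receptor stabilin-1, had 1119, 1293 and 1342 normalized counts under DMSO against 768, 978 and 1371 under SKI-II. The highest value was that of SKI-II replicate 3 and the lowest that of SKI-II replicate 1, so the groups overlapped. The log2 fold change was -0.27 (95% interval -0.70 to 0.17, adjusted p = 0.315 from edgeR), and without SKI-II replicate 3 it was -0.52 with an adjusted p of 0.0310. The end of Stab1 overlaps Nt5dc2 on the other strand by 112 bases of exon, of 10288 in all, and Nt5dc2 was lower (log2 fold change -1.95, adjusted p = 1.64e-05 from edgeR). How the counting treated strand is not stated, so reads over these bases cannot be assigned to either gene.

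The endocytic lectins Mrc1 and Clec10a, both weakly expressed in this line, changed in opposite directions. Clec10a (chromosome 11, 70156197 to 70170834) encodes MGL1, which binds terminal galactose and N-acetylgalactosamine. It had raw counts of 29, 17 and 24 under DMSO against 82, 120 and 162 under SKI-II. Every treated library stood far above the highest control. In normalized counts it rose from a mean of 24.5 ± 3.40 (SD, n = 3) to 113 ± 20.2 (SD, n = 3), 4.61-fold higher, or 2.20 ± 0.28 on the log2 scale (SE, edgeR adjusted p = 0.000272). With each library left out the log2 fold change was between 2.06 and 2.32, and the call held.

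Mrc1 (chromosome 2, 14229392 to 14332057) encodes the mannose receptor CD206. It had raw counts of 41, 15 and 41 under DMSO against 10, 6 and 19 under SKI-II. The lowest control, replicate 2, came close to the highest treated library, replicate 3, with 19.0 against 15.5 normalized counts. The mean fell from 33.1 ± 12.3 (SD, n = 3) to 10.8 ± 4.89 (SD, n = 3), 3.07-fold lower, or -1.61 ± 0.47 on the log2 scale (SE, edgeR adjusted p = 0.0209). The call was lost without DMSO replicate 1 (adjusted p = 0.0535), DMSO replicate 3 (adjusted p = 0.0557), SKI-II replicate 1 (adjusted p = 0.0648) or SKI-II replicate 2 (adjusted p = 0.0843), all from edgeR, and the log2 fold change then lay between -1.63 and -1.30.

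The signalling lectins gave a mixed picture, with Clec4d called as higher and Clec4e and Clec7a not called. Clec4d (chromosome 6, 123262111 to 123275265) encodes MCL, a partner of Mincle that binds the mycobacterial glycolipid trehalose dimycolate. Its normalized counts were 1441, 1306 and 2006 under DMSO against 2797, 2906 and 2839 under SKI-II. The treated libraries were nearly equal, while DMSO replicate 3 stood above the other controls. The mean rose from 1585 ± 371 (SD, n = 3) to 2847 ± 54.5 (SD, n = 3), or 0.84 ± 0.16 as log2 fold change (SE, edgeR adjusted p = 0.00263). It was called with any library left out, with a log2 fold change between 0.72 and 1.05.

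Clec4e (chromosome 6, 123281789 to 123289870), which encodes Mincle, had 1430, 2073 and 3202 normalized counts under DMSO against 2364, 4661 and 4280 under SKI-II. Here the spread within each group was wide, and SKI-II replicate 1 lay below DMSO replicate 3. The mean was 2235 ± 897 (SD, n = 3) in DMSO and 3768 ± 1231 (SD, n = 3) in SKI-II, or 0.75 ± 0.30 on the log2 scale (SE, edgeR adjusted p = 0.0764). It was called without DMSO replicate 3 (log2 fold change 1.10, adjusted p = 0.0112) and without SKI-II replicate 1 (log2 fold change 1.00, adjusted p = 0.0315). DESeq2 also called it (adjusted p = 0.0297), and limma-voom did not (adjusted p = 0.0779). With all libraries kept, edgeR called it under a replicate block (adjusted p = 0.00286) and with no filter on low counts (adjusted p = 1.26e-05).

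Clec7a (chromosome 6, 129461591 to 129472779) encodes Dectin-1, the receptor for fungal β-glucan, and GENCODE M21 lists it as a polymorphic pseudogene. Its normalized counts were 314, 301 and 361 under DMSO against 190.2, 135 and 338 under SKI-II. SKI-II replicate 3 lay within the range of the controls and the other treated libraries below it. The log2 fold change was -0.55 (95% interval -1.20 to 0.10, adjusted p = 0.163 from edgeR), and without SKI-II replicate 3 it was -1.003 with an adjusted p of 0.00590. Clec7a was also called with all libraries kept under a replicate block (adjusted p = 0.0340) and with no filter on low counts (adjusted p = 0.0342), both from edgeR. Over the 9 tested genes, DMSO replicate 3 was the highest control in 7 and DMSO replicate 2 the lowest in 6, and SKI-II replicate 1 was the lowest treated library in 5 and the highest in 0.

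**Figure D2:**
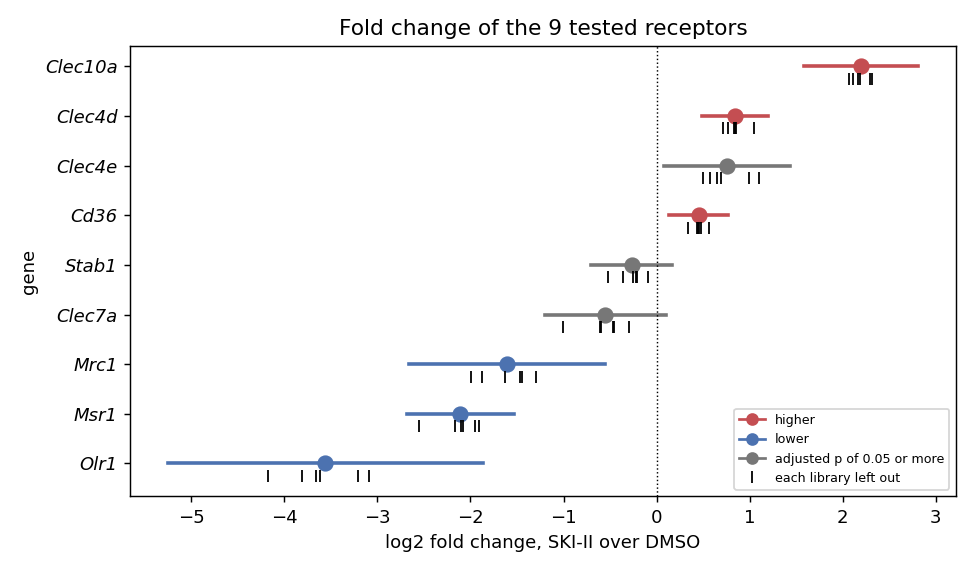
Fitted log2 fold change of SKI-II over DMSO for the 9 tested genes, with its 95% interval, and the values with each library left out as ticks below. Clec10a lies highest at 2.20 and Olr1 lowest at -3.56, and the intervals of Stab1 and Clec7a include 0.

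To compare genes with each other, levels were expressed per exon length as RPKM. In DMSO, Cd36 led with 88.9 ± 14.3 RPKM (SD, n = 3), followed by Clec4d with 61.8 ± 14.5 RPKM, Msr1 with 37.1 ± 2.25 RPKM and Clec4e with 28.1 ± 11.3 RPKM. The ranges of Cd36 and Clec4d overlapped, as did those of Msr1 and Clec4e. Clec7a and Stab1 formed a middle group at 7.69 ± 0.755 and 7.58 ± 0.709 RPKM, whose ranges overlapped as well. Clec10a, Olr1 and Mrc1 were all below 1 RPKM, at 0.526, 0.473 and 0.324 RPKM, with overlapping ranges between neighbours in that order. With the longest transcript or the coding length in place of the exon union, 8 of the 10 genes kept their rank in DMSO.

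In SKI-II, Cd36 was at 122 ± 4.03 RPKM and Clec4d at 111 ± 2.13 RPKM, and their ranges no longer overlapped. Clec4e followed at 47.3 ± 15.5 RPKM, above all libraries of Msr1, which was at 8.61 ± 4.01 RPKM and overlapped Stab1 at 6.29 ± 1.86 RPKM. Clec7a, at 5.23 ± 2.48 RPKM, overlapped Stab1. Clec10a reached 2.42 ± 0.434 RPKM and stood apart from Mrc1 at 0.106 and Olr1 at 0.0364 RPKM, whose ranges overlapped. Msr1 made up between 14.7% and 17.1% of the summed RPKM of the 10 genes in the DMSO libraries and between 1.98% and 4.11% in the SKI-II libraries. That sum was 202 to 265 RPKM in DMSO and 279 to 322 RPKM in SKI-II. Summed as normalized counts, without regard to length, the 10 genes gave 12846 to 16114 and 13961 to 17359.7 (DMSO and SKI-II), so the groups were apart on the RPKM scale and overlapped in normalized counts.

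**Figure D3:**
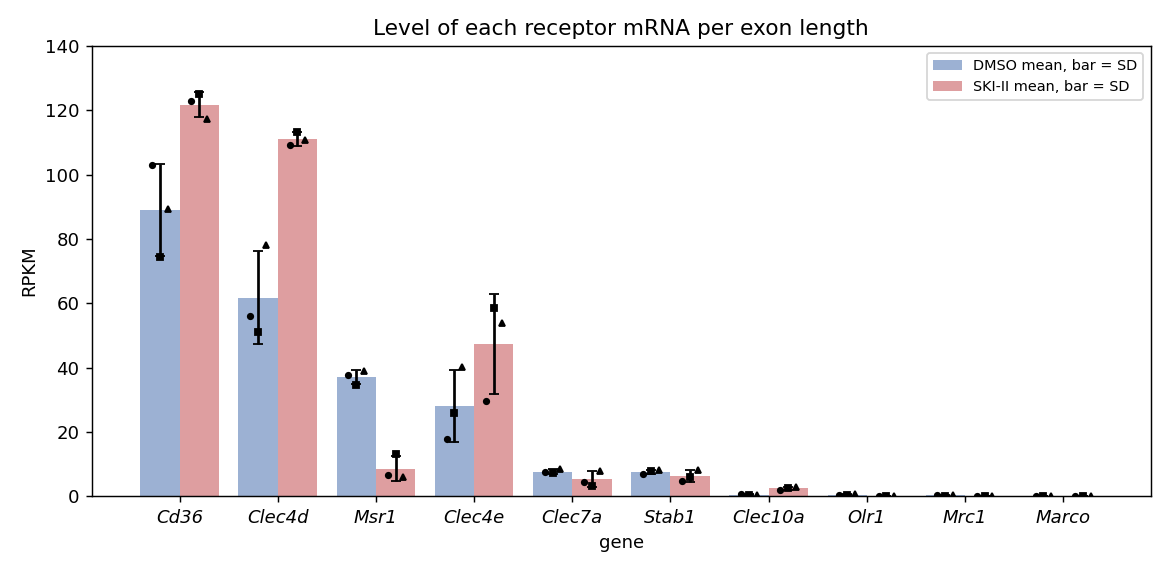
Level of each receptor mRNA in RPKM on a linear axis, as group means with SD bars and a point per library, ordered by the DMSO mean. Cd36 and Clec4d are the most abundant in both groups, and Msr1 goes from 37.1 RPKM in DMSO to 8.61 RPKM in SKI-II.

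Clec4d, Clec4e, Olr1 and Clec7a all lie on chromosome 6, where mouse C-type lectin genes form clusters. Clec4d and Clec4e are 6523 bases apart and point towards each other. On the other side of Clec4d, at a distance of 15089 bases, lies Clec4n, which encodes Dectin-2, a receptor for fungal mannans. Clec4n had raw counts of 10, 13 and 10 under DMSO against 17, 96 and 68 under SKI-II and was higher (log2 fold change 2.22 ± 0.56 SE, edgeR adjusted p = 0.0107). SKI-II replicate 1 was nearer to the controls than to the other treated libraries, and the call was lost without SKI-II replicate 2 (log2 fold change 1.66, adjusted p = 0.0516). Clec4a2, 118111 bases from Clec4d, had a log2 fold change of 0.19 (adjusted p = 0.670 from edgeR).

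Olr1 and Clec7a are separated by 12464 bases. Clec12a, an inhibitory lectin 96287 bases from Clec7a, had 1350.1, 898 and 1044 normalized counts under DMSO against 213, 554 and 469 under SKI-II. It was lower in all treated libraries, or -1.41 ± 0.30 on the log2 scale (SE, edgeR adjusted p = 0.00486). Clec1b nearby had a log2 fold change of 0.18 (adjusted p = 0.880 from edgeR), and Clec1a, Clec9a and Clec12b had too few reads for the test. Within 200 kb of Clec10a, 14 genes were tested, of which 5 were higher and 1 was lower, beside 18.4% higher and 19.7% lower over all tested genes. Of 14 tested neighbours of Stab1, 3 were lower and the rest were not called. The largest change near Clec10a, named after its value was seen, was that of the lipoxygenase gene Alox15, at a distance of 173317 bases (log2 fold change 2.88, adjusted p = 0.00152 from edgeR).

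Further myeloid C-type lectins were taken from a list of 26, of which 7 were tested and 9 had no counts. Of these 7, 3 were higher and 1, Clec12a, was lower, beside 18.4% and 19.7% of all tested genes, with a median log2 fold change of 0.19 against 0.00 over all tested genes. Clec4a3, another lectin of the Clec4 family, rose from 120.1 ± 18.9 to 559 ± 133 normalized counts (SD, n = 3), or 2.21 ± 0.21 as log2 fold change (SE, edgeR adjusted p = 6.11e-05). Clec5a, whose product pairs with the adaptor DAP12, rose from 2925 ± 356 to 5574 ± 1853 normalized counts, or 0.93 ± 0.22 as log2 fold change (SE, edgeR adjusted p = 0.00914). Clec4n is the remaining one that was higher. Mgl2, the close relative of Clec10a, had no counts in any library. Reads that fit both of a pair of close relatives, such as Clec10a and Mgl2 or the genes of the Clec4a group, may be assigned to either or dropped in counting, so the split between them is uncertain.

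Other scavenger receptors formed a list of 23, of which 11 were tested. By edgeR 0 of the 11 were higher and 5 were lower, where 18.4% and 19.7% of all tested genes were, with a median log2 fold change of -0.84. The number higher was also 0 at an unadjusted p below 0.05, by DESeq2 and by limma-voom. Axl, a receptor for apoptotic cells, fell most, from 124 ± 20.4 to 10.03 ± 3.92 normalized counts (SD, n = 3), or -3.58 ± 0.35 as log2 fold change (SE, edgeR adjusted p = 5.79e-05). Ssc5d, a soluble member with cysteine-rich scavenger domains, followed with a log2 fold change of -2.69. Lrp1, a large endocytic receptor, went from 31264 ± 1433 normalized counts down to 12663 ± 2803, or -1.30 ± 0.18 as log2 fold change (SE, edgeR adjusted p = 0.000532). Cxcl16 and Scarb1, which encodes the HDL receptor SR-B1, were lower, with log2 fold changes of -1.18 and -1.12. Mertk, which acts with Axl in the uptake of dying cells, was at 66.6 ± 16.0 and 99.7 ± 20.2 normalized counts in DMSO and SKI-II and was not called, and Cd163, Timd4, Scara5 and Dmbt1 had no counts.

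**Figure D4:**
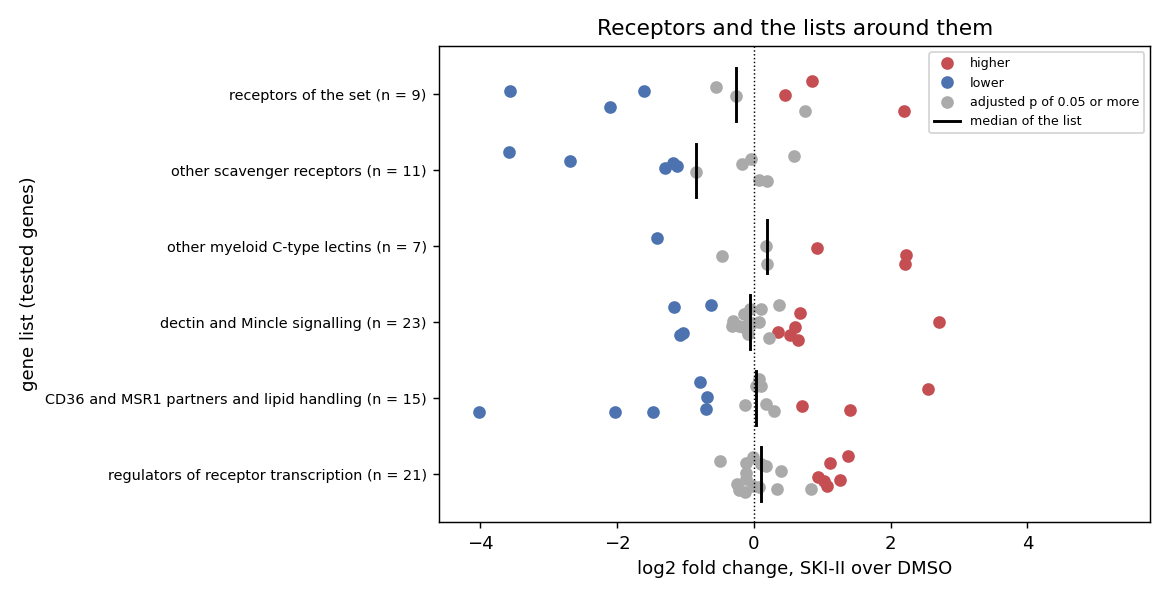
Log2 fold change of SKI-II over DMSO of every tested gene in the receptor set and in 5 lists around it, coloured by its call, with the median of each list as a vertical line. The other scavenger receptors have calls only on the lower side and the regulators only on the higher side, while the receptor set has 3 on each side.

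All 23 genes of the list for signalling downstream of Dectin-1 and Mincle were tested, and 6 were higher and 4 lower, with a median log2 fold change of -0.06. The called share of 43.5% was near the 38.0% of all tested genes. Syk had a log2 fold change of 0.53 (adjusted p = 0.0230 from edgeR) and Card9 one of 0.65 (adjusted p = 0.0462 from edgeR). Both calls were lost when single libraries were left out, for Syk each of DMSO replicates 1 and 2 and SKI-II replicate 1 (adjusted p up to 0.101) and for Card9 each of DMSO replicates 2 and 3 and SKI-II replicates 1 and 2 (adjusted p up to 0.159). The number of higher genes fell to 2 without DMSO replicate 2 or without SKI-II replicate 1. The Src-family kinase gene Fgr was lower, with a log2 fold change of -1.17, as was the phosphatase gene Ptpn6 with -1.08 (adjusted p = 0.00148 and 0.00261 from edgeR). Trim62, a ubiquitin ligase for CARD9, was the one with the largest increase, from 5.18 ± 1.52 to 35.5 ± 16.2 normalized counts (SD, n = 3), a log2 fold change of 2.71 (adjusted p = 0.00224 from edgeR). The shared adaptor genes Fcer1g and Tyrobp had log2 fold changes of -0.02 and 0.07.

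In the list of partners of CD36 and MSR1 and of lipid handling, all 15 genes were tested, with 3 higher and 6 lower, against 18.4% and 19.7% of all tested genes, and a median log2 fold change of 0.03. The fatty acid binding protein gene Fabp4 was counted between 192 and 311 times in DMSO and between 10 and 28 times in SKI-II, or -4.02 ± 0.42 as log2 fold change (SE, edgeR adjusted p = 9.57e-05). Fabp5 and the lipoprotein lipase gene Lpl were also lower, with log2 fold changes of -2.02 and -1.48. In contrast, the lipid droplet coat gene Plin2 rose from 2290.0 ± 141 to 13329 ± 3699 normalized counts (SD, n = 3), or 2.54 ± 0.19 as log2 fold change (SE, edgeR adjusted p = 1.80e-05). Cd14 and Tlr4, which act in the recognition of lipopolysaccharide, were higher by 1.41 and 0.70 on the log2 scale.

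Of 23 genes for factors and receptors known to control transcription in macrophages, 21 were tested, 6 were higher and 0 lower by edgeR, with a median log2 fold change of 0.10. The called share was 28.6%, below the 38.0% of all tested genes, of which 18.4% were higher and 19.7% lower. The number lower was also 0 at an unadjusted p below 0.05, by DESeq2 and by limma-voom, and it was 1 without DMSO replicate 2. The 4 largest increases were those of Klf4 (1.38), the LXRα gene Nr1h3 (1.25), Cebpb (1.11) and Ets2 (1.07), with adjusted p of 0.000483, 0.00786, 0.000246 and 0.00365 from edgeR. Pparg, a known inducer of Cd36, had 10 counts over the 6 libraries and was not tested. Spi1, which encodes PU.1, had a log2 fold change of -0.11 (adjusted p = 0.512), and Nfe2l2, which encodes Nrf2, one of -0.01 (adjusted p = 0.945), both from edgeR.

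Most alternative activation markers other than Mrc1 and Clec10a had few or no counts. Of 15 genes, 5 had no counts and 3 were tested, Tgm2, Irf4 and Egr2. Tgm2, which encodes a transglutaminase, was the most abundant, with 624 to 1156 counts in DMSO and 447 to 871 in SKI-II, and was not called (log2 fold change -0.56, edgeR adjusted p = 0.0712). Egr2 was lower (log2 fold change -1.75, adjusted p = 0.00497 from edgeR). Without DMSO replicate 1 or SKI-II replicate 3 there were 2 lower genes. Retnla and Chil3 were among those with no counts. Of 15 macrophage identity genes, 13 were tested, with 3 higher and 4 lower, where the shares of all tested genes were 18.4% and 19.7%. Fcgr1 and Cd14 were among the higher ones, by 2.17 and 1.41 on the log2 scale. Aif1, Lyz2, Itgam and Adgre1 were lower, with log2 fold changes of -1.77, -1.26, -0.93 and -0.92, and Aif1 was not called with DMSO replicate 1 or either of SKI-II replicates 1 and 2 left out (adjusted p up to 0.108). The summed level of the 15 genes was 142775 to 207869 normalized counts in DMSO and 92576 to 130109.8 in SKI-II. A single gene, Lyz2, went from a mean of 109818 ± 35313 to 45951 ± 19783 normalized counts (SD, n = 3), a larger fall than that of the mean sum, while Csf1r and Cd68 were not called. The part of Lyz2 and the other identity genes in the changes of the receptor genes was not tested. In bulk RNA, fewer cells with a transcript and less of it per cell cannot be told apart.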

How the data were processed

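mRNA enriched with oligo(dT) beads was sequenced in 3 DMSO and 3 SKI-II libraries. The authors deposited raw, unnormalized counts per Ensembl gene, and the submitters' processing notes name Trimmomatic 0.36, STAR 2.5.2b, featureCounts, Subread 1.5.2 and DESeq2. For the genome build, annotation release and strand setting, nothing is given in the sources used here. Symbols and positions are from GENCODE M21 (GRCm38), which named 48970 of the 49315 identifiers.

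Counts were tested with edgeR 4.0.16 in R 4.3.3 (TMM scaling, filter by expression at its defaults of 10 counts per library and 15 in total, quasi-likelihood F test, Benjamini-Hochberg adjustment). Standard errors and 95% intervals come from the fitted model and are not adjusted for multiple testing. RPKM used the union of exons and the scaled library. The variation between libraries of a group was 17.5% as the common coefficient of variation. No pair of libraries within a group was a duplicate: their counts differed with chi-square values of 15.4 to 58.1 per degree of freedom. Intervals and floors for counts of 0 cover counting error only.

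The receptor genes and the 12 gene lists were chosen with earlier results of these data known, and the lists were written from general knowledge. Some genes stand in more than 1 list. All 10 receptor genes are named, and of each list the called genes with an absolute log2 fold change above 1, at most the 4 largest in each direction, together with C-type lectins near the receptor genes. Other genes were named for their role or position after their values were seen. Some genes of the lists are not reported here by name. Alternatives were DESeq2 1.42.0, limma-voom (limma 3.58.1), RLE scaling, library size alone, other filters, the fold change threshold of the study, a replicate block, a prior count of 2, other lengths for RPKM, and each library left out in turn. The fits were first tested on simulated counts with known changes.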

Additional observations from a re-analysis of the deposited data

How the results depend on the processing

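The directions of the 9 tested receptor genes held under each of the alternatives that gave a value, and the calls of Msr1, Clec10a and, where tested, Olr1 held as well. That of Clec4d was lost only under the fold change threshold. With a log2 fold change above 1 required, the higher receptor genes numbered 1 instead of 3, the higher signalling genes 1 instead of 6 and the lower genes of the lipid handling list 3 instead of 6. With at least 10 counts in every library, 1 receptor gene was lower instead of 3, since Mrc1 and Olr1 were then not tested. With each library left out, 2 to 3 receptor genes were higher and 2 to 5 lower, 2 to 5 signalling genes were higher, 0 to 1 regulator was lower and 1 to 2 alternative activation markers were lower. The lower myeloid lectins numbered 2 instead of 1 with DESeq2 and with no filter, and the lower alternative activation markers 2 instead of 1 with no filter. The causes of the last shifts were not tested. Clec4e was also called with no filter (adjusted p = 1.26e-05 from edgeR) and Clec7a likewise (adjusted p = 0.0342). That fit gave smaller adjusted p for each tested receptor gene at nearly the same fold change. For Msr1 it was 4.42e-37 against 0.000277, both from edgeR, at a log2 fold change of -2.11 in both fits. Its adjusted p are therefore not comparable with those of the main fit.

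Whether the replicate numbers pair the libraries could not be settled with 3 libraries per group. The deviations of same-numbered libraries from their group means correlated with r = 0.246, 0.00994 and 0.458 for replicates 1, 2 and 3. For differently numbered libraries, r was lowest between DMSO replicate 1 and SKI-II replicate 3 (-0.462). It was highest between DMSO replicate 1 and SKI-II replicate 2 (0.296). With the replicate block 2 alternative activation markers were lower instead of 1, and Clec4e (adjusted p = 0.00286) and Clec7a (adjusted p = 0.0340) were called, all from edgeR. Over all genes the block gave 2765 higher and 2819 lower, against 2255 and 2413 without it. Genes below 1 RPKM, as Mrc1, Olr1 and Clec10a in DMSO, rest on at most 41 counts per library, which limits the precision of their fold changes.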

Other observations

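Osteoclast genes were examined because RAW264.7 cells can form osteoclasts. Of 8 such genes 5 were tested, and 3 were lower with SKI-II, beside 19.7% of all tested genes. They were Ctsk, the collagen-degrading cathepsin K (log2 fold change -1.46, adjusted p = 0.0210), Acp5, the tartrate-resistant acid phosphatase (-0.81, adjusted p = 0.0112), and Nfatc1, the lineage's transcription factor (-0.64, adjusted p = 0.00277), all from edgeR's quasi-likelihood test. Ctsk was not called with any of DMSO replicates 1 and 2 or SKI-II replicates 1 and 3 left out (adjusted p between 0.0523 and 0.0764). The summed level of the 8 genes was 2844 to 2970.2 normalized counts in DMSO and 1718 to 1890.2 in SKI-II. Calcr, the calcitonin receptor of mature osteoclasts, had no counts in any library.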
